A study of Oryza sativa with 18 samples.

Results

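The comparison of early seedling with seedling covered 12 cell labels that the authors' table of accessible chromatin gives for both stages of rice (Oryza sativa). A label is the name the authors gave to a group of nuclei, and the 12 were chosen because each has a column under both stages. They make up 24 of the 128 columns of the table, out of 19 early seedling and 17 seedling columns. Both stages came from the genotype Nipponbare, from tissue that the labels call fresh and, for both stages alike, seedling. The sources used here do not give the age of the plants or their growth conditions. Each stage had 2 libraries of single-cell ATAC-seq, an assay in which a transposase cuts and tags accessible DNA and each nucleus is barcoded in its own droplet. Nuclei were isolated by fluorescence-activated sorting, with 16000 nuclei per library on a 10x Genomics droplet kit. The full series has 18 libraries of 9 organs or stages and a table of 128764 regions, each 501 bases wide. The question the design puts is how the chromatin of a given cell type differs between the younger and the older seedling.

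Accessible chromatin regions hold promoters and distal regulatory elements, and their opening and closing accompanies the differentiation of a cell type. In a grass seedling, mesophyll carries most of the photosynthesis, the bundle sheath surrounds the veins, the epidermis and its stomatal precursors form the surface, and phloem, xylem and procambium build the veins. A young seedling still lives partly on grain reserves, and an older one depends on its expanding leaves. Here the labels were put in 3 classes by name. The photosynthetic class held Mesophyll and Bundle_sheath. The epidermal class held Epidermis and Stomatal_precursor. The vascular class held Companion_cell, Developing_phloem, Procambial_meristem, Vascular_cell, Vascular_sclerenchyma and Xylem_parenchyma, and Developing_fiber and Large_parenchyma belonged to no class. The labels could not be checked against marker genes, since no source used here names the genome build and no gene was linked to a region.

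All values below are those the authors name CPM, deposited as log2, and a difference is seedling minus early seedling on that log2 scale. CPM usually means read counts set to the same total in each column. The sources used here do not give the normalization, so further steps may have shaped the values. The table has 1 pooled column per stage and label, so no value has a replicate, an SD or a p-value, and differences between the stages cannot be told apart from differences between the libraries of the stages. A region was called when its difference was beyond 1 and its higher column had a CPM of at least 5. Depth per column is unknown. The count of different values that each column holds served as a substitute, since low read numbers allow only a small set of values. These distinct values ran from 51 in early seedling Xylem_parenchyma to 2530 in seedling Bundle_sheath. Every column had nearly the same distribution of values, and the median difference of every label lay between -0.06 and 0.03. A gain or loss of total accessibility could therefore not appear in these values. Equal totals alone do not require such similar distributions, and how they arose was not tested. A difference of 1 or a CPM of 5 thus need not stand for a fixed change or level of read counts.

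In the photosynthetic labels, most of the called regions were more accessible in the seedling. The median difference over all regions was -0.06 in Mesophyll and -0.04 in Bundle_sheath, so most regions were lower in the seedling in both. The calls thus describe only the larger differences. In Mesophyll, 3212 regions were called higher in the seedling, which was 2.49% of all regions, and 538 were called lower, which was 0.418%. Higher regions were thus 85.7% of the Mesophyll calls. In Bundle_sheath, 2670 regions (2.07%) were called higher and 1070 (0.831%) lower, so that 71.4% of the calls were higher. These 4 columns were also among the deepest of the comparison, with 1475 and 2322 distinct values in early seedling and seedling Mesophyll and 783 and 2530 in Bundle_sheath.

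The epidermal labels had fewer calls and a more even split. In Epidermis, the outer cell layer, 2254 regions (1.75%) were higher and 1331 (1.03%) lower. In Stomatal_precursor, cells of the lineage that makes the stomata, 1862 regions (1.45%) were higher and 1692 (1.31%) lower. Higher regions were 62.9% of the calls in Epidermis and 52.4% in Stomatal_precursor.

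Counts in the vascular labels spanned a wide range, and the depth substitute moved with them. Vascular_cell, with 577 and 937 distinct values, had 2373 regions higher (1.84%) and 1420 lower (1.10%), of which the higher count lay just above those of the epidermal labels and the lower count between them. Vascular_sclerenchyma, the lignified cells beside the veins, had 4475 higher (3.48%) and 3844 lower (2.99%). Developing_phloem had 4781 higher (3.71%) and 4461 lower (3.46%). In Procambial_meristem, the cells from which the veins form, 6906 regions (5.36%) were higher and 5047 (3.92%) lower. The largest counts in the vascular class belonged to Companion_cell, the partners of the sieve elements, with 9557 higher (7.42%) and 10086 lower (7.83%), and to Xylem_parenchyma, with 9367 higher (7.27%) and 10038 lower (7.80%). All 4 labels with fewer than 100 distinct values in a column were vascular, namely Companion_cell, Developing_phloem, Procambial_meristem and Xylem_parenchyma. The part of depth in these counts was not tested.

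Of the labels outside the classes, Large_parenchyma had 6189 regions higher (4.81%) and 3866 lower (3.0%), although both of its columns had over 400 distinct values (443 and 531). Developing_fiber had 4868 higher (3.78%) and 5427 lower (4.21%), with 572 distinct values in early seedling and 181 in the seedling. The 4 labels with over 400 distinct values in both columns were Bundle_sheath, Large_parenchyma, Mesophyll and Vascular_cell. In each of them, regions called higher outnumbered those called lower.

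**Figure D1:**
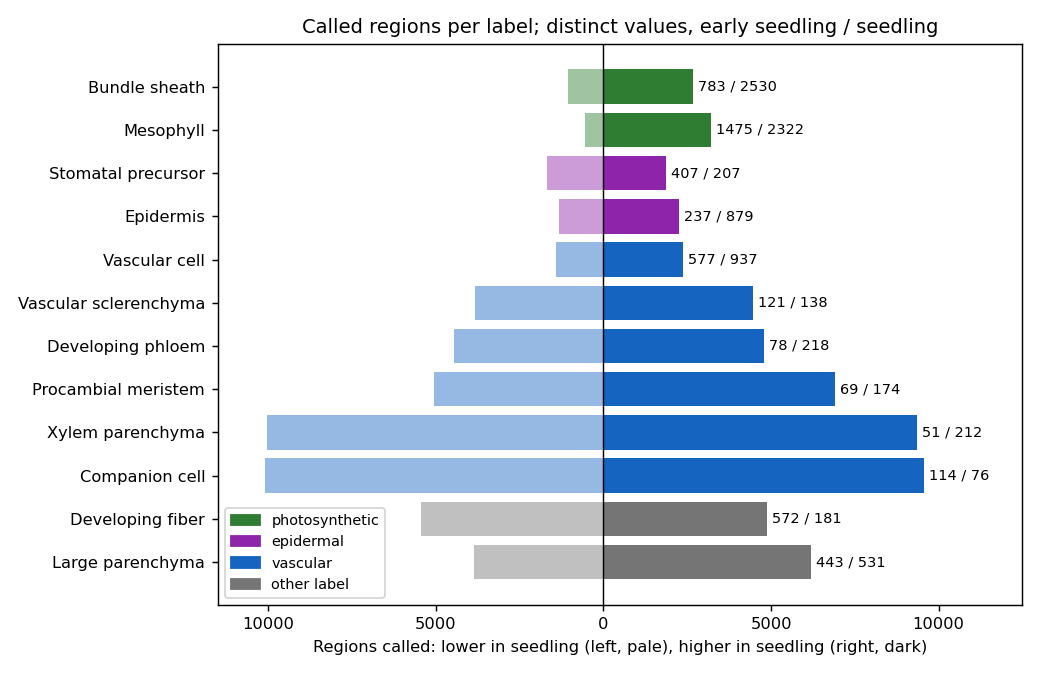
Bars give the number of regions called in each label, higher in the seedling to the right and lower to the left, coloured by class; the figures beside the bars are the distinct values of the early seedling and the seedling column. Mesophyll has 3212 regions higher and 538 lower, whereas Companion_cell has 9557 and 10086.

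The bars show that the excess of higher over lower regions was widest in Mesophyll, where the ratio was 5.97. It was 2.50 in Bundle_sheath and between 0.897, in Developing_fiber, and 1.69, in Epidermis, in the other 10 labels.

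Columns of the same label resembled each other between the stages to different degrees. The Pearson correlation across all regions, which are not independent, was 0.941 in Mesophyll and 0.940 in Bundle_sheath. It was 0.919 in Epidermis and 0.889 in Stomatal_precursor, and in the vascular class it ran from 0.785 in Companion_cell to 0.935 in Vascular_cell. The class medians were 0.940, 0.904 and 0.823 for photosynthetic, epidermal and vascular labels, and the photosynthetic columns were also deeper than most others. Over regions with a mean CPM of at least 5 the photosynthetic median, 0.891, was below the epidermal one, 0.904. For 8 of the 12 early seedling columns the most similar seedling column was the one with the same label, and the same held for 8 of the 12 seedling columns. Early seedling Companion_cell, for example, was closer to seedling Vascular_cell, at 0.846, than to seedling Companion_cell. Seedling Xylem_parenchyma was likewise closer to early seedling Vascular_cell, at 0.903, than to its own label, at 0.792.

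Within a stage, neighbouring cell types were often more alike than a label was to itself across the stages. The correlation between the stages exceeded that with the closest state of the same stage in 5 of 12 early seedling columns and in 3 of 12 seedling columns. Mesophyll and Bundle_sheath correlated at 0.955 in early seedling and 0.961 in the seedling, above either label's correlation between the stages. Even Mesophyll and Epidermis correlated at 0.848 in early seedling and 0.859 in the seedling. Companion_cell, Developing_phloem, Procambial_meristem and Xylem_parenchyma had lower correlations than these between the stages, so a high correlation alone is not particular to a label. Under the same call rule, Mesophyll and Bundle_sheath differed in 1769 regions (1.37% of all) in early seedling and 2066 (1.6%) in the seedling. Mesophyll and Vascular_cell differed in 7845 (6.09%) and 9143 (7.1%) regions, and Mesophyll and Epidermis in 14930 (11.6%) and 15881 (12.3%). Mesophyll of the 2 stages was therefore separated by more called regions than Mesophyll from Bundle_sheath of its own stage. It was separated by fewer than Mesophyll from Vascular_cell or Epidermis. Columns of a stage share their libraries and columns of different stages do not. Stage and library thus cannot be told apart in these comparisons.

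Regions called in every label of a class were few beside the calls of single labels. Both photosynthetic labels were higher in 1261 regions, 0.979% of all, and lower in 143, or 0.111%. Both epidermal labels were higher in 532 regions (0.413%) and lower in 152 (0.118%). All 6 vascular labels were higher in 24 regions (0.0186%) and lower in 1 (0.000777%), and each label added to a class can only lower such a count. When the classes were cut to their 2 deepest labels, Vascular_cell and Vascular_sclerenchyma shared 661 higher and 240 lower of the 128764 regions. The vascular count then exceeded the epidermal one in both directions. The order of the epidermal and the vascular class thus depended on the number of labels taken.

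Most of these regions were not particular to a class. Of the 1261 regions higher in both photosynthetic labels, 87.7% were called higher in 1 or more vascular labels, against 22.0% of all regions, and 46.2% in 1 or more epidermal labels, against 2.78%. Of the 532 higher in both epidermal labels, 66.5% were also called higher in a photosynthetic label, against 3.59% of all regions. The labels of a stage come from the same 2 libraries, so these shares are no independent evidence for one another. Regions called in both photosynthetic labels and in no epidermal or vascular label numbered 103 higher (0.08%) and 15 lower (0.0116%). The epidermal class had 70 such regions higher (0.0544%) and 48 lower (0.0373%), and the vascular class had 1 higher (0.000777%) and 0 lower (0%).

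In the photosynthetic class, the regions with the largest smallest difference over the labels were not all confined to that class. On chromosome 1 from 41977701 to 41978201, Mesophyll had 0.975 CPM in early seedling and 8.32 in the seedling, a difference of 3.09, and Bundle_sheath had 0.675 and 7.35, a difference of 3.45. That region was called higher in 10 of 12 labels, and its median over the leaf columns was 17.9 CPM. On chromosome 2 from 4537107 to 4537607, Mesophyll went from 1.39 to 10.7 CPM and Bundle_sheath from 1.68 to 11.7, again with 10 labels called higher and a leaf median of 24.1. On chromosome 1 from 2212920 to 2213420, Mesophyll went from 1.36 to 12.9 CPM and Bundle_sheath from 1.62 to 13.8, but the leaf median was 1.53 and the crown root median 14.9. The first pair of regions was thus open in leaf, and the third was open in crown root and not in leaf. Positions are as in the authors' files, counted from 1.

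Of the regions called in the photosynthetic class and in neither other class, the one with the largest smallest difference lay on chromosome 12 from 5888001 to 5888501. Mesophyll had 0.935 CPM in early seedling and 7.30 in the seedling there, and Bundle_sheath had 0.989 and 5.86. Large_parenchyma, which belongs to no class, was called as well, with 9.36 and 23.8 CPM. The region was more open in late seed, at a median of 17.5 CPM, than in leaf, at 2.48.

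The epidermal regions also reached into other labels. On chromosome 5 from 21738487 to 21738987, Epidermis had 0.923 CPM in early seedling and 8.33 in the seedling, and Stomatal_precursor had 0.665 and 6.83. It was called higher in 8 labels, and Companion_cell had the opposite sign, with 8.10 CPM in early seedling and 4.25 in the seedling. On chromosome 4 from 13465943 to 13466443, Epidermis went from 1.86 to 17.2 CPM and Stomatal_precursor from 2.33 to 17.7, with 10 labels called higher and an axillary bud median of 16.1. In the other direction, both epidermal labels and no other label were called lower on chromosome 9 from 21279816 to 21280316. Epidermis had 20.8 CPM in early seedling and 5.82 in the seedling, Stomatal_precursor had 8.54 and 1.76, and Mesophyll, at 12.5 and 6.31 CPM, just missed the call with a difference of -0.98.

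In the vascular class, the region with the largest smallest difference lay on chromosome 10 from 6596683 to 6597183. Over the 12 early seedling columns it ranged from 0.353 to 2.52 CPM with a median of 1.13, and over the 12 seedling columns from 3.14 to 9.40 with a median of 6.42. The ranges did not overlap, and the leaf median of 19.3 lay above both. The single region lower in all 6 vascular labels was on chromosome 7 from 23782672 to 23783172. It ranged from 7.45 to 18.2 CPM in early seedling (median 13.1) and from 2.62 to 8.82 in the seedling (median 4.88), and it was also called lower in Mesophyll, Bundle_sheath, Developing_fiber and Large_parenchyma. The single region higher in all 6 vascular labels and in no photosynthetic or epidermal label was on chromosome 1 from 26687738 to 26688238. It ranged from 1.14 to 5.24 CPM in early seedling and from 4.94 to 8.95 in the seedling, and its smallest vascular difference was 1.02, in Companion_cell.

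Across all 12 labels, 7 regions (0.00544%) were called higher in every label, and 0 (0%) were called lower in every label. Exactly 11 labels were called higher in 20 regions (0.0155%) and lower in 1 (0.000777%). Of all regions, 61504 (47.8%) were called in at least 1 label, and 8899 (6.91%) were called higher in some labels and lower in others. In exactly 1 label, 24381 regions (18.9%) were higher and 24379 (18.9%) lower. In exactly 2 labels lower regions were the more frequent, at 7032 (5.46%) against 6767 (5.26%). From 3 labels on, higher regions outnumbered lower ones at each number of labels. The counts were 2326 (1.81%) against 2056 (1.60%) in exactly 3 and 579 (0.450%) against 208 (0.162%) in exactly 5. In exactly 10 they were 48 (0.0373%) against 1 (0.000777%). Calls in a single label were frequent in shallow columns. Of the 128764 regions, 4412 were higher and 3821 lower in Companion_cell alone, against 363 and 103 in Mesophyll alone.

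Among the 7 regions, the largest smallest difference was found on chromosome 6 from 26513411 to 26513911. The 12 early seedling columns ranged from 1.84 to 10.6 CPM with a median of 4.36, and the 12 seedling columns from 16.6 to 37.8 with a median of 21.5. In Mesophyll it had 4.45 and 18.6 CPM, in Epidermis 4.27 and 22.8, and in Vascular_cell, at a difference of 2.29, it was likewise higher, so all 3 classes moved alike. The states found in only 1 of the stages gave the same picture, with 2.68 to 8.42 CPM in the 7 early seedling states and 16.1 to 27.9 in the 5 seedling states. In the organs outside the comparison, the median ran from 4.06 CPM in late seed to 13.9 in axillary bud, all below the seedling median. The region was broadly accessible in the authors' list.

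The other 6 regions had lower medians in the seedling. On chromosome 8 from 17561297 to 17561797, early seedling columns ranged from 1.14 to 5.65 CPM (median 2.29) and seedling columns from 7.36 to 25.7 (median 14.3). On chromosome 1 from 17981696 to 17982196, they ranged from 1.14 to 6.90 (median 5.34) and from 10.9 to 25.8 (median 17.6). On both, the ranges of the stages did not overlap over the shared labels, and of the 7 regions only that on chromosome 9 had overlapping ranges there. With the other states, the region on chromosome 8 overlapped as well, since seedling Developing_xylem had 5.19 CPM. So did that on chromosome 4 from 13466448 to 13466948, with 8.18 in Early_seedling_UN2 and 6.62 in seedling Large_parenchyma. The region on chromosome 4 from 18710779 to 18711279 had medians of 1.76 and 6.50 CPM, below those of leaf (10.2), crown root (16.6) and seminal root (17.7). On chromosome 4 from 13466448 to 13466948, next to the epidermal region named above, the medians were 3.27 and 10.4 CPM. On chromosome 5 from 3681161 to 3681661 they were 3.76 and 11.5. The region on chromosome 9 from 10522324 to 10522824, with medians of 2.29 and 9.74, was the only one of the 7 that the authors list as specific to named states.

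The region lower in 11 labels lay on chromosome 2 from 32334502 to 32335002 and was the leading lower region of both the photosynthetic and the epidermal class. Its early seedling columns ranged from 6.52 to 19.8 CPM with a median of 17.8, and its seedling columns from 1.44 to 5.19 with a median of 2.90. Mesophyll had 15.7 and 2.64 CPM, Epidermis 19.8 and 3.56, and Xylem_parenchyma 17.8 and 1.44. Developing_phloem, at 6.52 and 5.19, was the exception, and its early seedling column had 78 distinct values. Leaf had a median of 15.2 CPM here, near that of early seedling, whereas axillary bud had 1.13 and panicle 4.27.

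**Figure D2:**
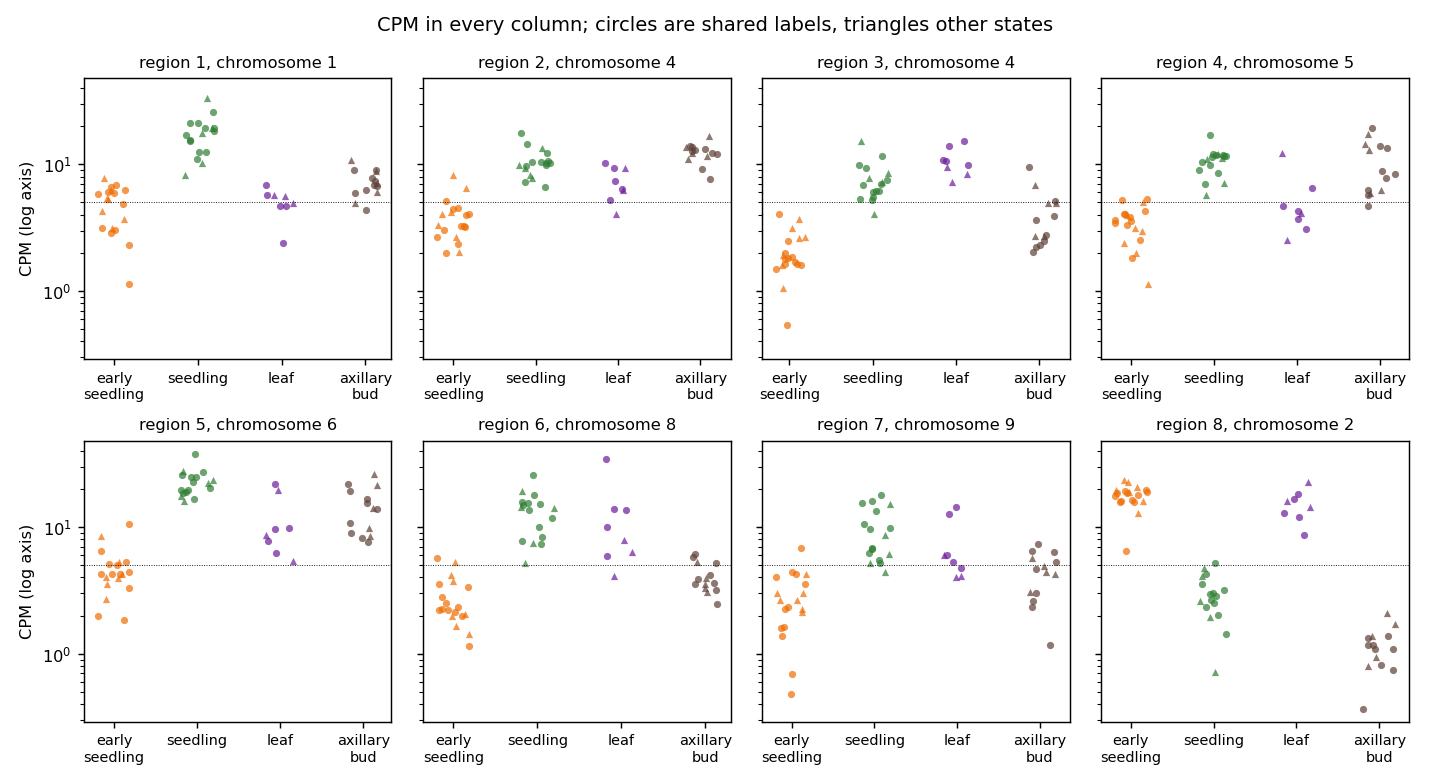
Each panel shows 1 region, with CPM on a log axis and 1 point per column of early seedling, seedling, leaf and axillary bud; circles are the shared labels, triangles other states, and the dotted line is the minimum of 5 CPM. Regions 1 to 7 were called higher in all 12 labels, and region 8, on chromosome 2, was lower in 11 labels, with leaf columns near those of early seedling.

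In the plot of the 8 regions, regions 1 to 7 show seedling above early seedling in each label, as their choice requires, while columns of a stage spread widely in some, from 0.484 to 6.85 CPM in early seedling for region 7. There, the ranges of the stages overlap, and leaf and bud stand on different sides from region to region. A count that needs neither the size of a difference nor a CPM minimum is that of regions whose columns of the stages did not overlap. Over the 12 shared labels, every seedling column was above every early seedling column in 59 regions (0.0458%) and below in 17 (0.0132%). Over the 4 labels with over 400 distinct values alone, the counts turned round, to 4089 higher (3.18%) and 5730 lower (4.45%). Over all 19 early seedling and 17 seedling columns, the counts were 13 higher (0.0101%) and 1 lower (0.000777%). The lower region was the one on chromosome 2, with 6.52 to 23.3 CPM in early seedling and 0.712 to 5.19 in the seedling. Of the 13 higher regions, that on chromosome 6 had the widest gap, and the next was on chromosome 2 from 5628069 to 5628569, with 3.04 to 9.46 CPM in early seedling and 13.2 to 19.3 in the seedling. A pair of them lay near each other on chromosome 10, the vascular region named above and 6599477 to 6599977, with 6.13 to 18.4 CPM in early seedling and 21.4 to 36.4 in the seedling.

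Leaf and axillary bud were profiled in other libraries, so they offered a measurement that the calls had not used. Both have columns for 5 of the labels, Mesophyll, Bundle_sheath, Epidermis, Vascular_cell and Companion_cell. The 3212 regions called higher in Mesophyll had a median of 3.25 CPM in early seedling and 8.40 in the seedling. In the Mesophyll columns of leaf their median was 8.51, and in those of axillary bud it was 2.94. Leaf therefore stood at the seedling level and bud at the early seedling level. Leaf exceeded bud in 84.3% of these regions, against 51.4% of all regions, and the median of leaf minus bud was 1.44 on the log2 scale, against 0.03. For the 538 regions called lower in Mesophyll, leaf had a median of 2.52 CPM and bud 6.87, leaf exceeded bud in 14.7%, and the median of leaf minus bud was -1.36.

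The same comparison gave smaller separations in the other 4 labels. In Bundle_sheath, leaf minus bud had a median of 0.46 in the higher and -0.17 in the lower regions. In Vascular_cell the medians were 0.44 and -0.44, and in Companion_cell 0.26 and -0.04. Epidermis showed none in its higher regions, with a median of -0.01 against -0.05 over all regions, and -0.36 in its lower ones. Both leaf and bud Epidermis lay above early seedling in the higher regions, with medians of 6.56 and 6.57 CPM against 3.21.

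**Figure D3:**
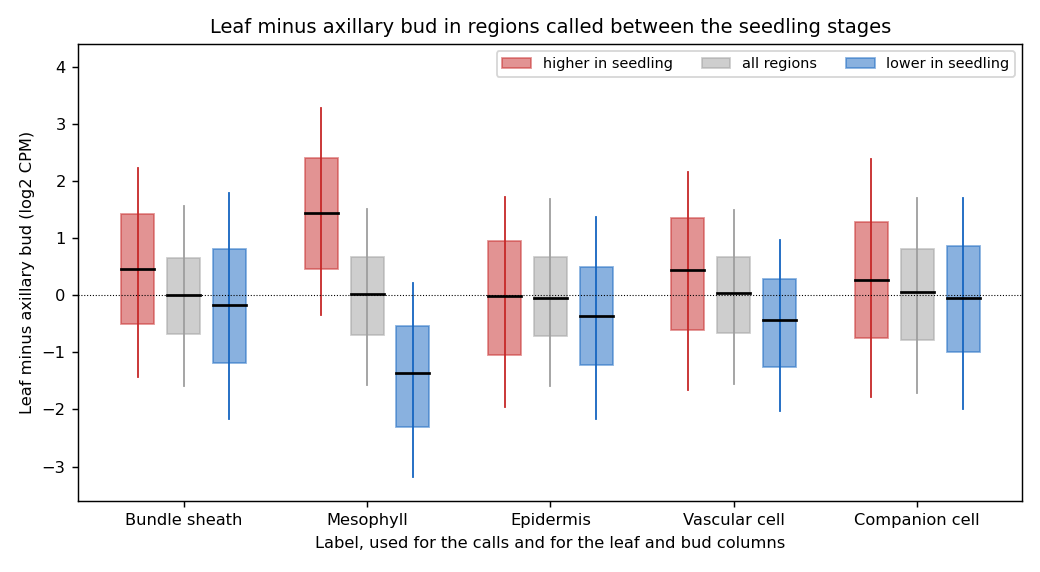
Boxes give the quartiles, black lines the medians and thin lines the 10th to 90th percentiles of leaf minus axillary bud (log2 CPM) for regions called higher, all regions and regions called lower in the same label. The Mesophyll medians stand at 1.44, 0.03 and -1.36, and those of Epidermis at -0.01, -0.05 and -0.36.

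As the plot of leaf minus bud shows, the boxes of higher and lower regions stand clear of each other in Mesophyll and overlap in the other 4 labels. The separation belonged to the regions called in Mesophyll and not to the Mesophyll columns of leaf and bud. Measured in the leaf and bud columns of the 5 labels in turn, regions higher in Mesophyll had medians of leaf minus bud from 1.12 to 1.80, and regions lower in Mesophyll from -1.73 to -1.08. Regions called in Vascular_cell gave medians from 0.20 to 0.66 when higher and from -0.74 to -0.06 when lower, the same signs at smaller sizes. The other 3 labels gave smaller or mixed values, such as 0.10 to 0.46 for higher and -0.17 to 0.35 for lower regions of Bundle_sheath. All 5 measurements share the leaf and the bud libraries.

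Over all columns of the organs, the regions called in Mesophyll had the most distinct profile. Those higher in the seedling had their highest median in leaf, at 3.16 on the log2 CPM scale, and their lowest in axillary bud, at 1.61. The lower ones had their highest median in axillary bud, at 2.69, and their lowest in leaf, at 1.26. Regions higher in Bundle_sheath, Epidermis and Vascular_cell had their highest median in crown root, at 2.94, 2.85 and 2.85, and their lowest in late seed. In leaf, axillary bud and panicle, though not in the root organs for higher regions, Developing_fiber showed the reverse of Mesophyll. Its higher regions had their highest median in panicle, at 2.61, and their lowest in leaf, at 1.72, and its lower regions had their highest median in leaf, at 2.81, and their lowest in panicle, at 1.44. Developing_fiber names the young cells of the fibres that stiffen the organs. Its early seedling column was closer to the seedling state Seedling_UN4, at a correlation of 0.911, than to seedling Developing_fiber, at 0.877.

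**Figure D4:**
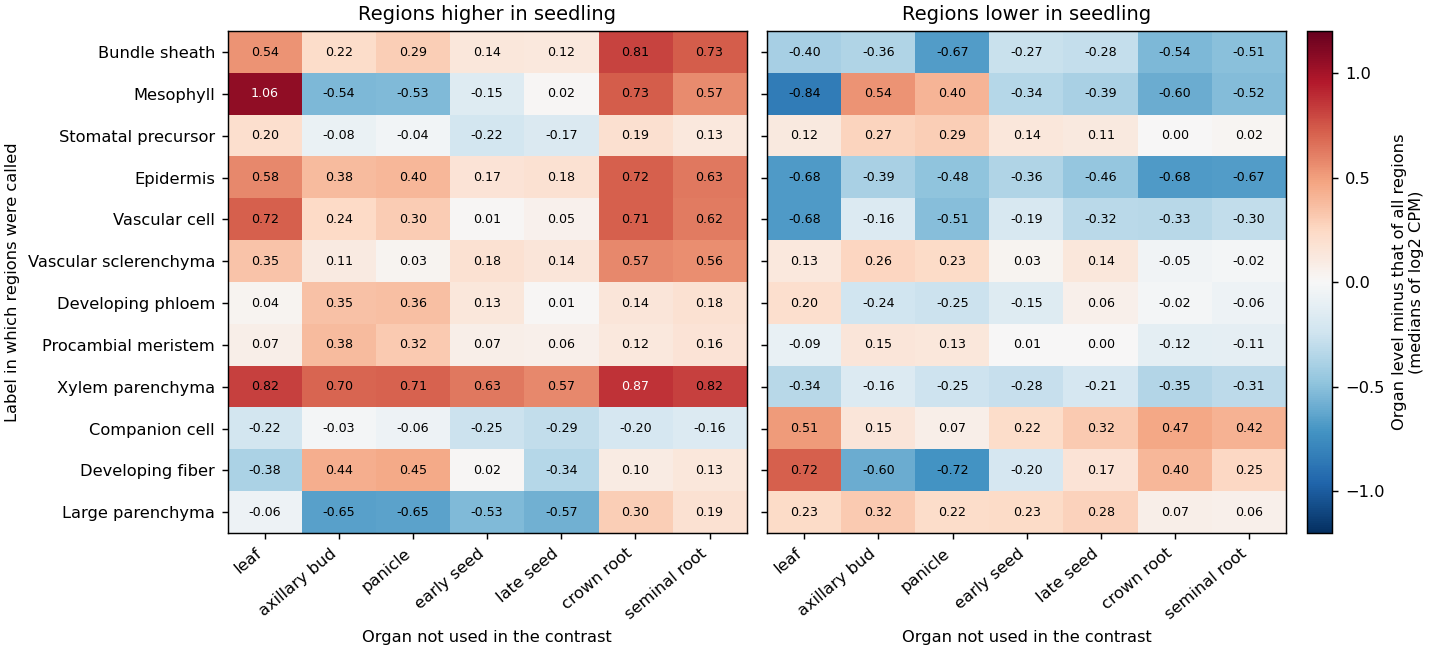
Each cell gives, for regions called higher (left) or lower (right) in the label of its row, the median level in an organ outside the comparison minus the median of all regions in that organ (log2 CPM, red above and blue below). Mesophyll regions higher in the seedling stand at 1.06 in leaf and -0.54 in axillary bud, and Developing_fiber regions show the opposite signs in these organs.

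In the map of organ levels, the rows of Bundle_sheath, Epidermis, Vascular_cell and Xylem_parenchyma are above the level of all regions in every organ for higher regions and below it in every organ for lower regions. The higher regions of Mesophyll, Developing_fiber, Large_parenchyma and Stomatal_precursor instead stand above that level in some organs and below it in others. Companion_cell goes the other way from the first group. Its higher regions stand below the level of all regions in every organ, down to -0.29 in late seed. Its lower regions stand above it in every organ, up to 0.51 in leaf.

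Within the stages, the states without a partner gave a further measurement from the same 4 libraries. These were 7 states in early seedling, among them SAM (as the authors label it), Guard_mother_cell and precursors of phloem and xylem, and 5 in the seedling, among them Developing_xylem and Vascular_parenchyma. The mean of the 5 minus the mean of the 7 had a median of -0.01 over all regions. It was 0.70 for the regions higher in Bundle_sheath, of which 93.9% were above 0, and -0.44 for the lower ones. For Mesophyll the medians were 0.39 and -0.41, for Epidermis 0.48 and -0.26, and for Vascular_cell 0.59 and -0.18. They were 0.15 and -0.12 for Procambial_meristem and 0.15 and -0.14 for Companion_cell, and the lower regions of Developing_fiber had the median nearest to 0, at -0.11. In each label the median was above 0 for higher and below 0 for lower regions.

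Regions called in a direction had a neighbour called alike more often than all regions did, although most had none. In Mesophyll, 29.1% of the higher regions had a neighbouring region that was also called higher, against 4.71% of all regions. The share ran from 13.01% in Developing_phloem to 33.5% in Large_parenchyma for higher regions and from 6.15% in Stomatal_precursor to 30.8% in Developing_fiber for lower ones, and it exceeded that of all regions in all 12 labels and both directions. It also did so in Mesophyll among regions with more than 1000 bases to each side, at 13.03% against 2.62% for the higher ones. In Developing_phloem the excess among such regions was much smaller. It was 6.03% against 4.77% for higher and 4.85% against 3.97% for lower regions. Of the 1261 regions higher in both photosynthetic labels, 494 (39.2%) lay in 198 runs of regions at most 10000 bases apart. No such share was computed for other sets of equal size. The 39.2% therefore cannot be set against what the spacing of regions alone would give.

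The longest runs held several regions within a few gene lengths. On chromosome 2 from 4528002 to 4542272, 8 of the 12 regions present were higher in both photosynthetic labels, with a median of 3.11 CPM in early seedling Mesophyll and 11.5 in the seedling, taken over all regions of the run. On chromosome 6 from 22541579 to 22561345 it was 8 of 10, with medians of 5.35 and 13.1 CPM. Leaf and axillary bud Mesophyll had 7.92 and 4.94 CPM in the run on chromosome 2. In that on chromosome 6 they had 7.75 and 9.80, so bud stood above leaf there. On chromosome 1 from 8073270 to 8087540 it was 7 of 12, with medians of 4.66 and 9.51 CPM. Leaf Mesophyll had 13.2 there and axillary bud Mesophyll 4.55. On chromosome 1 from 41970090 to 41979595 it was 6 of 9, with medians of 1.77 and 8.99 CPM in early seedling and seedling Mesophyll, 20.7 in leaf Mesophyll and 2.67 in axillary bud Mesophyll. The first and the last of these hold regions described above. By chromosome, the share of regions higher in both photosynthetic labels ran only from 0.857% on chromosome 6 to 1.15% on chromosome 1.

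The authors' list marks each region as broadly accessible or as specific to named states, and it was made from the same nuclei. Of the regions higher in both photosynthetic labels and present in the list, 9.26% were specific to some state, against 35.5% of the whole list, and of those lower in both, 43.3% were. For the epidermal class the shares were 17.96% and 40.9%. In both classes the share lay below that of the whole list for higher regions and above it for lower ones.

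The regions listed as specific to a label were in part different between the stages. For Mesophyll, the list names 101 regions in early seedling and 220 in the seedling, of which 64 are shared, 63.4% of the first and 29.1% of the second. For Epidermis it names 1269 and 963, with 606 shared, which is 47.8% and 62.9%. For Stomatal_precursor 374 were shared, 66.4% of 563 and 45.3% of 825. The vascular labels shared less at the low end. Procambial_meristem shared 45, 11.2% of 401 and 11.5% of 391, and Vascular_cell shared 7, 7.69% of 91 and 18.9% of 37. Vascular_sclerenchyma shared 375, 34.9% of 1073 and 54.0% of 694. Some regions listed for a label in 1 stage only were listed for another label of the other stage. Mesophyll had the highest share of these on the seedling side, with 87 of 156, and Large_parenchyma the lowest, with 186 of 1655. The median difference of the 156 regions in Mesophyll was 0.65, and 48 of them were called higher.

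Among the regions called in a single label, the largest differences were found in shallow and in some deeper columns. On chromosome 11 from 5852582 to 5853082, Companion_cell had 0.543 CPM in early seedling and 17.8 in the seedling, a difference of 5.04, in columns with 114 and 76 distinct values. On chromosome 2 from 34937935 to 34938435, Xylem_parenchyma had 6.15 and 0.196 CPM, a difference of -4.97, and its early seedling column had 51 distinct values. The Mesophyll region, on chromosome 12 from 4566762 to 4567262, had 0.494 and 5.47 CPM, a difference of 3.47, and its leaf median was 6.47 against 0.841 in axillary bud. In Epidermis the region on chromosome 12 from 24230690 to 24231190 had 0.291 and 9.21 CPM, a difference of 4.99, with 237 and 879 distinct values. With 1 column per stage, none of these differences has a replicate check.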

How the data were processed

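Single-cell ATAC-seq of 4 libraries, 2 per stage, was compared within a series of 18. The authors deposited a table of log2 CPM, pooled per organ and cell state, and a list that marks regions as broadly accessible or specific. BWA and MACS2 were used, per the submitters' processing notes. Versions, the genome build, and the rules of clustering, transposase shift, doublet removal and normalization were not given in the sources used here. Column sums of CPM lay between 1007548 and 1008613. All columns could be assigned to an organ by the prefix of their names, with Eseedling read as early seedling and bud as axillary bud, and each was taken to pool the libraries of its organ.

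Differences, calls (beyond 1 on the log2 scale, CPM of at least 5), correlations and counts were computed in Python 3.11.15 with numpy 2.4.6 and pandas 2.3.3, and plotted with matplotlib 3.10.9, after the call rule was tested on simulated data. Without replicate columns no test was run, and the depth of a column is unknown. Named regions were the 3 with the largest smallest difference over the labels of a class, and the largest difference among those called in a single label. The text gives some of these. The region lower in 11 labels and the regions whose columns did not overlap were chosen after their values were seen. Classes, lists and rules were chosen with earlier results of these data known. Gene lists and marker genes were not analysed here. Alternatives were log2(CPM + 1), CPM minimums of 2 and 10, a difference over 1.5, leaving out labels, and equal numbers of labels per class.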

Additional observations from a re-analysis of the deposited data

Results flagged for a closer look

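A region on chromosome 9 from 11671073 to 11671573 differed in opposite directions between classes. Its mean difference, seedling minus early seedling, was 1.91 on the log2 scale in the epidermal labels and -0.26 in the photosynthetic labels, a gap of 2.17. Epidermis had 1.21 CPM in early seedling and 5.32 in the seedling, and Stomatal_precursor had 1.77 and 5.71. Mesophyll had 1.74 and 1.45 CPM, and Bundle_sheath 1.55 and 1.30. It stood out because both epidermal labels were higher and both photosynthetic labels slightly lower in the seedling. The region was among those chosen for a large difference in the epidermal labels, and its photosynthetic values all lay below the minimum of 5 CPM. The photosynthetic mean of -0.26 lay within the quartiles of all regions, whose lower bounds were -0.34 in Mesophyll and -0.33 in Bundle_sheath. An opposite change in the photosynthetic labels was therefore not shown. The difference between the classes was not tested, and all of these columns come from the same 4 libraries.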

How the results depend on the processing

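No paired analysis was possible because the columns pool the libraries of a stage and carry no replicate numbers. Counts were taken as unchanged within 1.5 times the reported count. Correlations were taken as unchanged within the SD over the labels of the class, which is very small for the 2 photosynthetic labels. Leaf-over-bud shares were taken as unchanged within an exact binomial 95% interval over regions, which are not independent. None of these limits is a spread over replicates. Of the 301 values under alternatives, 168 stayed within these limits. The other 133 are given here; stricter or looser limits and fewer labels change counts by construction, and other causes were not tested.

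With differences of log2(CPM + 1), both photosynthetic labels were higher in 810 and lower in 47 regions (7 lower in that class alone), both epidermal labels in 288 and 51 (17 lower alone), and all vascular labels in 15 and 0 (0 higher alone). On that scale single labels gave 509 lower in Bundle_sheath, 1445 higher and 610 lower in Epidermis, 2423 lower in Large_parenchyma, 168 lower in Mesophyll, 1079 higher and 902 lower in Stomatal_precursor, 1467 higher and 740 lower in Vascular_cell and 2559 lower in Vascular_sclerenchyma. Of the leaf-over-bud shares in Mesophyll, the higher one was 86.8% on that scale and 88.6% with a difference over 1.5, and the lower one was 8.0% with a CPM minimum of 10 (these 3 were added after seeing the data).

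A CPM minimum of 2 gave 2212 higher and 325 lower (photosynthetic), 1188 and 594 (epidermal, 85 lower alone), 37 and 9 (vascular, 3 lower alone), and 14 higher in all labels. A minimum of 10 gave 477 and 31 (63 and 5 alone), 173 and 24 (30 and 11 alone), 6 and 0 (0 higher alone), and 2 higher in all labels. A difference over 1.5 gave 296 and 8 (48 and 3 alone), 91 and 8 (11 and 3 alone), 6 and 0 (0 higher alone), and 2 in all labels. The share of higher calls moved by over 10 points under this last limit in 5 labels, reaching 97.9% in Mesophyll, and with the minimum of 10 in Stomatal_precursor only. In Companion_cell, Xylem_parenchyma and Stomatal_precursor, whose calls were near an even split, the majority direction changed under 1 or more settings.

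With the 2 deepest labels per class, the counts in 1 class alone were 266 and 38 (photosynthetic), 133 and 95 (epidermal) and 117 and 123 (vascular, where lower regions were then the more frequent), and the vascular labels shared 661 and 240. Only the 4 deepest labels, an alternative added after seeing the data, gave 399 higher and 23 lower in all of them, and over their columns alone the stages did not overlap in 4089 higher and 5730 lower regions, so that lower regions were then the more frequent.

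Leaving out 1 label at a time left 2670 to 3212 higher and 538 to 1070 lower photosynthetic regions (377 to 695 and 134 to 251 alone), 1862 to 2254 and 1331 to 1692 epidermal ones (540 to 600 and 501 to 642 alone, with lower regions the more frequent without Epidermis), and 28 to 53 and 2 to 7 vascular ones (1 to 4 and 0 to 2 alone). Regions in all labels numbered 7 to 16 higher, the most without Companion_cell, and 0 to 1 lower, the 1 without Developing_phloem. Regions without overlap numbered 59 to 101 higher and 19 to 54 lower over shared labels, both highest without Companion_cell, and 13 to 21 higher and 1 to 3 lower over all columns.

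The median correlations for the photosynthetic class were 0.949 on log2(CPM + 1), 0.891 over regions with a mean CPM of at least 5 and 0.830 over regions listed as specific. For the epidermal class they were 0.933 on log2(CPM + 1) and 0.720 over specific regions, and for the vascular class 0.506 over specific regions. Over regions with a mean CPM of at least 5 the epidermal median, 0.904, exceeded the photosynthetic one, and the order of the classes was that of the report in the other settings. Subtracting each label's median difference moved no count by over 1.5 times. The precision of shallow columns cannot be given, since their depth is unknown.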
